A study of Mus musculus with 12 samples.

Results

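The TGF-beta and BMP pathway genes of mouse pancreatic acini and pancreatic organoids were measured on 12 Affymetrix arrays. Members were chosen by gene symbol. They were the TGF-beta, BMP and GDF ligands, the activin and inhibin subunits, the TGF-beta, activin and BMP receptors, the SMADs, the ID genes, and Nog, Chrd, Grem1, Fst and Bambi. The symbols found 55 of the 18194 genes that had a probe set of their own, and each gene was read on the probe set with its highest mean over the 12 arrays. The symbols also took in 4 genes whose names carry the pathway but whose products are no ligand, receptor or SMAD (Bmp1, Bmp2k, Tgfb1i1 and Tgfbrap1).

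The arrays set organoids obtained from exocrine tissue after induction of YAP, a transcriptional coactivator restrained by the Hippo pathway, beside organoids of native ducts and beside isolated exocrine tissue. Acini, Ducts and yDucts were compared, each with 4 biological replicas named A to D. Acini were exocrine tissue isolated from the pancreas. Ducts were organoids grown from fragments of native pancreatic ducts, and yDucts were organoids grown from acini of adult R26-rtTA; tetO-YAP S127A mice after doxycycline had switched on YAP, and per the study they could be passaged later without doxycycline. The rtTA activator was driven from the Rosa26 locus, which is active in most cell types. The genotype and age of the mice that gave the Acini and Ducts samples are not given in the labels, nor whether an organoid line was 1 clone or whether the 4 replicas were separate animals or separate cultures. The p-values therefore measure the spread between these arrays, which may be in part technical. Both kinds of organoid were embedded in Matrigel under a medium with EGF, gastrin, nicotinamide, N-Acetylcysteine, B27, R-Spondin1, human FGF10 and human Noggin, a secreted BMP antagonist. No culture of the profiled Acini is described in the study's text. Cell state and culture medium cannot be told apart in any comparison with Acini.

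Ligands of this family bind a type II receptor, which phosphorylates a type I receptor, which in turn phosphorylates receptor-regulated SMADs. SMAD2 and SMAD3 carry TGF-beta and activin signals and SMAD1, SMAD5 and SMAD9 carry BMP signals, in both cases to the nucleus with SMAD4. ID genes are classical targets of BMP signalling, and SMAD6, SMAD7 and BAMBI are feedback inhibitors. In the pancreas the pathway is known for restraining epithelial growth, for its part in fibrosis and for the loss of SMAD4 in ductal cancer.

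Values are log2 signals after RMA, in which 1 unit is a doubling. The array median was 4.59 ± 0.04 in Acini, 4.38 ± 0.02 in Ducts and 4.38 ± 0.01 in yDucts (SD, n = 4), and the interquartile range was 2.64 ± 0.13, 3.89 ± 0.03 and 3.95 ± 0.02. The 3′ minus 5′ difference of the Gapdh control probe sets, a sign of RNA integrity, was 1.29 to 1.91 in Acini, −0.07 to 0.02 in Ducts and −0.17 to −0.12 in yDucts. The labelled cell types were borne out for acini, since all 5 acinar markers on the array were lower in both kinds of organoid (Cpa1, a digestive carboxypeptidase, had a mean of 14.59 in Acini and 3.28 in Ducts). Of 5 duct markers, Krt19 and Krt7 were higher in both kinds of organoid, and Onecut1 was lower in Ducts. Sox9 and Cftr did not pass the test against Acini in either, with Sox9 differences of 0.56 in Ducts and 0.18 in yDucts. All 10 stromal markers and all 9 endothelial markers were also lower in both. The mean level of the stromal list was 6.89 to 7.41 on the Acini arrays, 3.47 to 3.61 on the Ducts arrays and 3.52 to 3.60 on the yDucts arrays. That of the endothelial list was 6.08 to 6.51, 3.34 to 3.66 and 3.47 to 3.55. Among the stromal markers Lum, Col3a1, Pdgfra and Rgs5 lay below the 30th percentile of the array in both kinds of organoid. In bulk samples fewer cells of a type and less RNA per cell cannot be told apart. Within Ducts, arrays A and B stood apart from C and D: both lay above both for 29% of all 14991 genes tested and below both for 30.9%. All 6 endocrine markers and 6 of 7 immune markers were lower in both kinds of organoid as well, with a mean level of 7.45 to 7.90 for the endocrine list and 5.85 to 6.17 for the immune list on the Acini arrays, against 3.43 to 3.52 and 4.17 to 4.57 on the organoid arrays. Gcg, Iapp and Ppy of the endocrine list and Ptprc and C1qa of the immune list were below the 30th percentile in organoids. The remaining immune marker, Cd68, went the other way. It was at least 2.28-fold higher in Ducts and at least 2.06-fold higher in yDucts, from an Acini mean below the 30th percentile. The parts that RNA integrity and stromal, endothelial, endocrine and immune cells have in the differences from Acini given here were not tested.

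Testing required a value over the array's 30th percentile on 4 or more of the 12 arrays, and 50 of the 55 members met this. The members not tested were Nog, the BMP antagonist noggin, the ligand Bmp5, the type I receptors Acvr1c and Bmpr1b, and the activin subunit Inhbe. Nog, Bmp5 and Acvr1c were below that percentile on average in all 3 groups. Bmpr1b was at 3.32, 4.72, 4.74 and 4.60 on Acini arrays A to D and at 2.46 to 2.88 on the organoid arrays, where its means were below the percentile.

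Against Acini, both kinds of organoid had 7 of 9 tested type I and type II receptors and 4 of 5 receptor-regulated SMADs higher, and the antagonist Chrd and the co-receptor Tgfbr3 lower, while 5 of 5 GDF ligands were lower in Ducts and 4 of 5 in yDucts. Under cyclic loess scaling Acvr1b, Acvr2a and Bmpr2 of these receptors lost their call in Ducts and Acvr2a lost it in yDucts. Smad1 also lost its call in Ducts there, and Gdf5 and Gdf9 lost theirs in both. The Gdf11 call in Ducts was lost in 12 of 20 alternatives. In Ducts 22 of the 50 tested members were higher than in Acini, 16 were lower and 12 did not pass the test (limma, adjusted p under 0.05). Over all 14991 genes tested, 42.7% were higher and 33.1% were lower. In yDucts 21 members were higher, 14 were lower and 15 did not pass, against 43.6% and 32.6% of all genes tested. Both comparisons use the same Acini arrays. The counts of members are thus close to the shares over all genes. The median difference of the members from Acini was 0.36 in Ducts and 0.26 in yDucts (log2), where all tested genes had 0.21 and 0.24. Under cyclic loess scaling the members split 14 higher to 13 lower in Ducts and 20 to 9 in yDucts, and under quantile scaling 18 to 15 and 20 to 10. Over all genes called, the share that was higher was 56.3% in Ducts and 57.2% in yDucts as deposited, 44.4% and 45.3% under quantile scaling and 41.4% and 43% under cyclic loess. In both comparisons 20 members were higher and 7 were lower by at least 2-fold. The share of all tested genes at that cut was not counted, so these 2-fold counts are not a result about the members. Between yDucts and Ducts 1 member was higher and 1 was lower, where 2.15% of all tested genes were higher and 0.987% were lower.

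Among the ligands the BMP ligand Bmp4, which patterns gut and pancreatic mesenchyme in development, stood furthest above Acini. Its values were 5.05, 5.42, 4.71 and 4.84 on Acini arrays A to D, 8.79, 8.10, 9.32 and 9.25 on Ducts arrays and 9.79, 9.09, 9.83 and 10.22 on yDucts arrays. Every organoid array was above every Acini array, and the Ducts and yDucts arrays overlapped. The difference from Acini was 3.86 ± 0.29 in Ducts (log2, standard error; 14.5-fold, adjusted p = 1.45e-07) and 4.73 ± 0.29 in yDucts (26.5-fold, adjusted p = 2.57e-08).

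Tgfb3, a TGF-beta ligand, was also higher in both kinds of organoid. It read 4.16, 4.86, 4.90 and 4.40 in Acini, 8.31, 8.05, 6.89 and 6.59 in Ducts and 7.13, 6.31, 7.46 and 6.92 in yDucts. The groups did not overlap with Acini, and Ducts A and B were the highest of the 12 arrays. The difference from Acini was 2.88 ± 0.37 in Ducts (7.36-fold, adjusted p = 1.53e-05) and 2.38 ± 0.37 in yDucts (5.19-fold, adjusted p = 7.91e-05). The mean of Tgfb3 in Acini was below the median of the Acini arrays. Tgfb1, the ligand made by many cell types, did not pass the test (0.29 ± 0.30 in Ducts, adjusted p = 0.383, and 0.55 ± 0.30 in yDucts, adjusted p = 0.107). Tgfb2 was lower on its brightest probe set (−0.77 ± 0.14 in Ducts and −0.46 ± 0.14 in yDucts), but its 3 other probe sets had differences of −0.46 to 0.03 in Ducts and −0.21 to 0.70 in yDucts. With the mean of all its probe sets it did not pass (−0.32 and 0.11).

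Inhba, the subunit of activin A, read 5.14, 6.43, 5.54 and 5.57 in Acini, 9.11, 7.23, 6.80 and 6.96 in Ducts and 7.42, 8.25, 7.88 and 7.35 in yDucts. All 8 organoid arrays lay above the Acini arrays, and Ducts A was the highest of the 12 arrays. Inhba was 1.86 ± 0.45 higher in Ducts (3.62-fold, adjusted p = 0.00229) and 2.06 ± 0.45 higher in yDucts (4.16-fold, adjusted p = 0.0011). Under cyclic loess scaling the adjusted p in Ducts was 0.0864, and the mean of all its probe sets gave 0.69 and 0.78, which passed. The inhibin alpha subunit Inha, which pairs with beta subunits to antagonise activin, was higher in Ducts than in Acini (0.76 ± 0.22, adjusted p = 0.00634) and did not pass in yDucts (−0.19 ± 0.22, adjusted p = 0.435). Its call in Ducts was lost under quantile scaling (adjusted p = 0.148), under cyclic loess (adjusted p = 0.0937) and when both Ducts C and Ducts D were left out (adjusted p = 0.0585). Inhbc, a beta subunit best known from liver, was lower in both (−0.82 ± 0.16, adjusted p = 0.000577, and −0.73 ± 0.16, adjusted p = 0.00129), where Acini itself averaged less than its array median. The activin B subunit Inhbb was lower on its brightest probe set (−0.43 ± 0.17 and −0.46 ± 0.17), whereas its other probe set had differences of 0.46 and 1.12. The Inhbb call was lost in 10 of 20 alternatives in Ducts and 8 of 18 in yDucts, among them median centring, the replicate block and the loss of Acini B or D in both, of Ducts C or D in Ducts, and of yDucts C or D in yDucts.

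Bmp7, a ligand with roles in kidney and epithelial maintenance, went the other way from Bmp4. It read 7.22, 7.66, 7.86 and 7.39 in Acini, 4.93, 5.51, 6.67 and 6.35 in Ducts and 5.27, 5.26, 5.33 and 5.19 in yDucts. No organoid array reached the lowest Acini array, and the Ducts arrays were widely spread. The difference was −1.67 ± 0.31 in Ducts (3.18-fold lower, adjusted p = 0.000313) and −2.27 ± 0.31 in yDucts (4.82-fold lower, adjusted p = 2.34e-05). Without Ducts A and B the difference in Ducts was −1.02, and it still passed. Its 2 other probe sets had differences of −3.38 and −1.33 in Ducts and −4.35 and −1.89 in yDucts.

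The remaining BMP ligands had small differences. Bmp15, known from the oocyte, was at least 1.56-fold lower in Ducts and at least 1.62-fold lower in yDucts (adjusted p = 0.00235 and 0.00313), where its means lay below the 30th percentile, and Bmp8b was higher in Ducts (0.71 ± 0.30, adjusted p = 0.0462) but not in yDucts (0.05 ± 0.30, adjusted p = 0.886). The Bmp8b call was lost when any 1 of Acini B, C and D or of Ducts A and B was left out. Bmp2, Bmp6, Bmp8a and Bmp10 did not pass against Acini. Bmp6 was the most spread of these, at 5.78, 6.47, 4.09 and 3.77 on Ducts A to D. All 5 GDF ligands were lower in Ducts and 4 of them were lower in yDucts, beside 33.1% and 32.6% of all genes tested. Gdf2, the circulating ligand also called BMP9, read 6.20, 6.57, 7.27 and 7.30 in Acini, 4.96 to 5.35 in Ducts and 5.13 to 5.29 in yDucts, with no overlap between Acini and either organoid group. Its difference was −1.68 ± 0.22 in Ducts (3.2-fold lower, adjusted p = 1.95e-05) and −1.64 ± 0.22 in yDucts (3.12-fold lower, adjusted p = 2.31e-05). Gdf3, known from early embryos, read 6.16, 5.70, 5.31 and 6.06 in Acini and 4.33 to 4.53 on the 8 organoid arrays, again without overlap. It was lower by 2.61-fold in Ducts (−1.38 ± 0.17, adjusted p = 1.14e-05) and by 2.46-fold in yDucts (−1.30 ± 0.17, adjusted p = 1.99e-05). Gdf5, a joint-forming ligand, was at least 1.81-fold lower in both (adjusted p = 0.00141 and 0.000931), a lower bound since the organoid means were below the 30th percentile. Gdf9, an oocyte ligand, had differences of −0.72 ± 0.20 (adjusted p = 0.00581) and −0.78 ± 0.20 (adjusted p = 0.00348). Gdf11, which has a role in pancreatic progenitors, had −0.43 ± 0.18 in Ducts (adjusted p = 0.0427) and −0.33 ± 0.18 in yDucts (adjusted p = 0.11), and its call in Ducts was lost in 12 of 20 alternatives, among them the loss of any 1 of Acini A, B and D or of Ducts A, C and D.

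**Figure D1:**
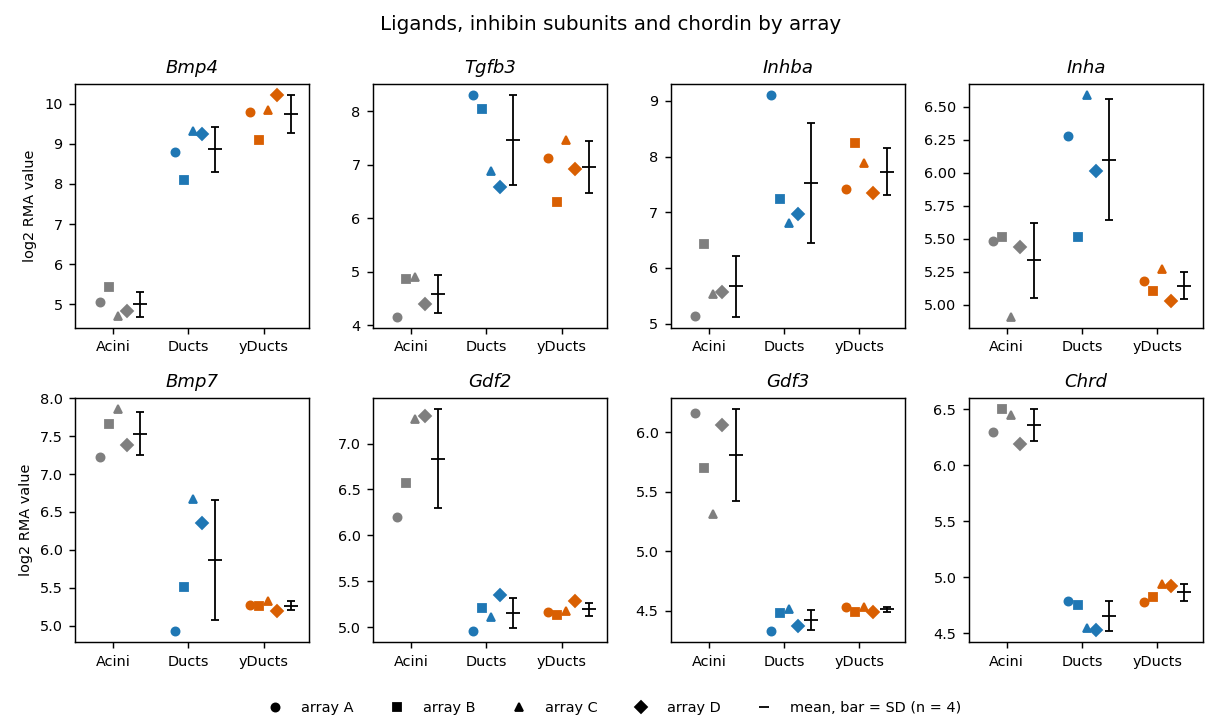
Log2 RMA values (vertical axis, a separate range in each panel that does not start at 0) of ligands, inhibin subunits and chordin in Acini, Ducts and yDucts. Each point is an array, the marker shape gives its letter, and bars give the mean and SD (n = 4). Bmp4, Tgfb3 and Inhba lie higher on all 8 organoid arrays, and Bmp7, Gdf2, Gdf3 and Chrd lie lower.

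Of the secreted antagonists among the members, only Chrd passed against Acini. Chordin binds BMPs and keeps them from their receptors. Chrd read 6.30, 6.50, 6.45 and 6.19 in Acini, 4.79, 4.75, 4.55 and 4.53 in Ducts and 4.78, 4.82, 4.94 and 4.92 in yDucts. The Acini arrays stood clear of all others. Chrd was lower by 3.26-fold in Ducts (−1.70 ± 0.13, adjusted p = 1.43e-07) and by 2.82-fold in yDucts (−1.49 ± 0.13, adjusted p = 4.55e-07). Fst, which traps activin, and Grem1, which traps BMPs, did not pass in any comparison. Single arrays stood high for each, with Fst at 5.85 on Ducts A and 3.35 to 4.19 on the other Ducts arrays, and Grem1 at 5.45 on yDucts B and 3.76 to 4.09 on the other yDucts arrays.

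Receptors were mostly higher in organoids. Of the 5 type I receptors tested 4 were higher in both Ducts and yDucts, as were 3 of the 4 type II receptors. None of those tested was lower. The type I receptors that the filter left out, Bmpr1b and Acvr1c, read lower on every organoid array than on any Acini array. The Acini mean was 4.34 for Bmpr1b and 3.69 for Acvr1c, the latter below the 30th percentile. Over all genes tested 42.7% were higher in Ducts and 43.6% in yDucts. Tgfbr2, the type II receptor that binds TGF-beta, had the smallest adjusted p of the members. It read 6.47, 6.88, 6.77 and 6.13 in Acini, 10.31, 10.60, 10.38 and 10.32 in Ducts and 10.36, 10.32, 10.28 and 10.31 in yDucts. The organoid arrays were nearly level with each other and far above Acini. The difference was 3.84 ± 0.16 in Ducts (14.3-fold, adjusted p = 9.3e-10) and 3.76 ± 0.16 in yDucts (13.5-fold, adjusted p = 1.14e-09). Another Tgfbr2 probe set had differences of 1.08 and 1.19, and a dim one, under the 30th percentile on all arrays, had −0.57 and −0.62.

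Tgfbr1, the type I partner of Tgfbr2, read 6.18, 7.40, 7.52 and 7.17 in Acini, 9.50, 9.93, 8.50 and 8.67 in Ducts and 9.55, 10.09, 9.66 and 9.22 in yDucts. Organoids and Acini did not overlap. Tgfbr1 was higher by 4.24-fold in Ducts (2.08 ± 0.35, adjusted p = 0.000153) and by 5.91-fold in yDucts (2.56 ± 0.35, adjusted p = 2.61e-05). Its 2 other probe sets were dimmer and had differences of 0.87 and 0.26 in Ducts and 1.36 and 0.56 in yDucts, and the mean of all of them gave 1.07 and 1.49, which passed. The third TGF-beta receptor was lower. Tgfbr3, or betaglycan, is a co-receptor that presents ligand, TGF-beta2 above all, and it read 7.28, 7.69, 7.63 and 6.54 in Acini, 4.15, 4.32, 4.77 and 4.34 in Ducts and 5.69, 5.61, 5.12 and 4.81 in yDucts. The 3 groups did not overlap, with Acini highest and Ducts lowest. Against Acini it was lower by 7.41-fold in Ducts (−2.89 ± 0.27, adjusted p = 9.05e-07) and by 3.94-fold in yDucts (−1.98 ± 0.27, adjusted p = 2.44e-05). The difference between yDucts and Ducts, 0.91 ± 0.27, did not pass (adjusted p = 0.103).

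Acvr1, the type I receptor also called ALK2, was the receptor with the largest difference in yDucts. Its values were 5.39, 5.05, 5.37 and 4.02 in Acini, 8.76, 8.38, 8.78 and 8.93 in Ducts and 8.96, 9.16, 8.90 and 8.92 in yDucts. All organoid arrays lay within about 1 unit of each other and above every Acini array. Acvr1 was higher by 13.5-fold in Ducts (3.76 ± 0.26, adjusted p = 7.12e-08) and by 16.3-fold in yDucts (4.03 ± 0.26, adjusted p = 3.85e-08). Of its 2 other probe sets, 1 had differences of 2.04 and 2.34 and 1 had −1.09 and −1.05.

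Bmpr1a, a type I receptor for BMPs, read 6.55, 6.57, 6.93 and 6.89 in Acini, 9.21, 9.21, 8.96 and 9.06 in Ducts and 9.58, 9.41, 9.27 and 9.27 in yDucts. The 3 groups were ordered without overlap, yDucts being highest, although the difference between yDucts and Ducts did not pass (0.27 ± 0.14, adjusted p = 0.464). Against Acini Bmpr1a was higher by 5.19-fold in Ducts (2.38 ± 0.14, adjusted p = 2.05e-08) and by 6.27-fold in yDucts (2.65 ± 0.14, adjusted p = 8.04e-09). Of its 5 other probe sets, 3 had differences of 2.02 to 2.69 and 2 had −0.61 to −0.08. Bmpr2, the type II receptor for BMPs, had differences of 1.30 ± 0.14 (adjusted p = 3.38e-06) and 1.56 ± 0.14 (adjusted p = 6.71e-07), and Acvr1b, the activin receptor also called ALK4, had 1.60 ± 0.25 (adjusted p = 7.4e-05) and 1.92 ± 0.25 (adjusted p = 1.54e-05). For both, the mean of all probe sets differed by 0.17 to 0.34 and did not pass, and in Ducts neither passed under cyclic loess (adjusted p = 0.261 and 0.131). Acvr2a, a type II receptor for activins, had 1.18 ± 0.19 (adjusted p = 0.000103) and 0.88 ± 0.19 (adjusted p = 0.00103) as deposited, but it did not pass under quantile or cyclic loess scaling, and its difference in yDucts turned to −0.03 and −0.20 there. Acvr2b and Acvrl1, the latter known from endothelium, did not pass in any comparison. Acvr2b was at 3.60 on Acini B and at 5.64 to 6.21 on the other Acini arrays.

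Of the 5 receptor-regulated SMADs 4 were higher and 1 was lower in both kinds of organoid, with both branches among the higher. The shares of higher genes over all genes tested were 42.7% in Ducts and 43.6% in yDucts. Smad3, of the TGF-beta branch, read 7.12, 7.27, 7.67 and 7.43 in Acini, 10.11, 9.77, 9.48 and 9.45 in Ducts and 9.74, 9.98, 9.76 and 9.53 in yDucts. It was higher by 5.03-fold in Ducts (2.33 ± 0.18, adjusted p = 1.87e-07) and by 5.21-fold in yDucts (2.38 ± 0.18, adjusted p = 1.58e-07), with no overlap. Smad2, of the same branch, was 3.33-fold and 2.9-fold higher (1.74 ± 0.19, adjusted p = 2.92e-06, and 1.54 ± 0.19, adjusted p = 8.4e-06). Of the BMP branch, Smad1 was 3.04-fold and 3.88-fold higher (1.60 ± 0.23, adjusted p = 4.3e-05, and 1.96 ± 0.23, adjusted p = 7.49e-06) and Smad5 was 3.24-fold and 3.63-fold higher (1.70 ± 0.20, adjusted p = 7.41e-06, and 1.86 ± 0.20, adjusted p = 3.18e-06). Smad9, also of the BMP branch and often called SMAD8, was the exception. It read 4.45, 4.18, 3.84 and 4.11 in Acini and 3.03 to 3.42 on the 8 organoid arrays, so all of its values lay below the medians of the arrays. Its differences were −0.93 ± 0.16 in Ducts (adjusted p = 0.000137) and −0.85 ± 0.16 in yDucts (adjusted p = 0.000296). Smad4, the partner shared by both branches, read 8.87 to 9.17 in Acini, 10.21 to 10.74 in Ducts and 10.18 to 10.35 in yDucts. Its differences were 1.48 ± 0.15 (2.78-fold, adjusted p = 1.42e-06) and 1.22 ± 0.15 (2.33-fold, adjusted p = 7.61e-06). Another Smad4 probe set of nearly equal mean level (9.89 against 9.93) had smaller differences of 0.47 and 0.34. A dimmer Smad4 probe set had 2.27 and 2.18. The other probe sets of Smad5 had 0.96 and 0.45 in Ducts and 1.16 and 0.42 in yDucts.

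**Figure D2:**
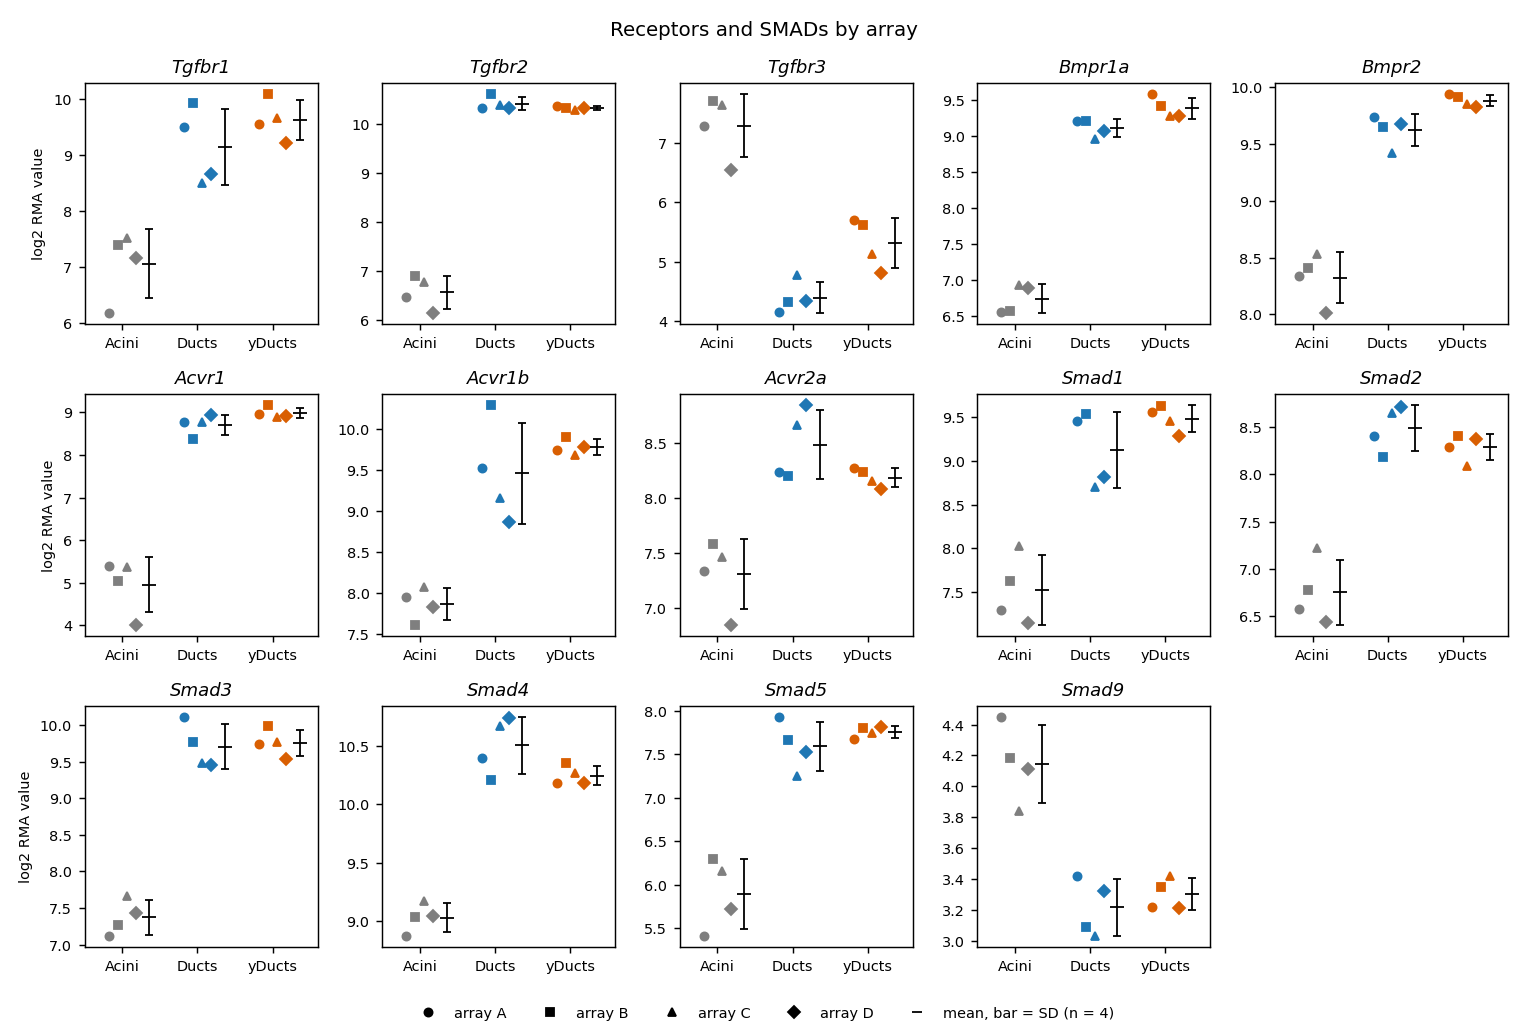
Log2 RMA values (vertical axis, a separate range in each panel that does not start at 0) of selected receptors and SMADs in the 3 groups. Each point is an array, its shape gives the letter, and bars give the mean and SD (n = 4). All panels but Tgfbr3 and Smad9 show the 8 organoid arrays above the 4 Acini arrays. Acvr2b and Acvrl1, which did not pass in any comparison, and the untested Bmpr1b and Acvr1c are not drawn.

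These differences depend on how the arrays are scaled to each other. The Acini arrays had a narrower spread of values, and when all arrays were forced to one distribution (quantile scaling) or to each other by level (cyclic loess) the differences of receptors and SMADs that were higher in organoids shrank, whereas that of Tgfbr3 grew from −2.89 to −3.41 under quantile scaling in Ducts and from −1.98 to −2.62 in yDucts. Smad3 fell to 1.21 in Ducts and 1.26 in yDucts under cyclic loess, Smad4 to 0.38 and 0.12 and Smad1 to 0.48 and 0.84. Smad4 in yDucts (adjusted p = 0.429) and Smad1 in Ducts (adjusted p = 0.071) no longer passed. Gdf5, Gdf9, Bmp15, Inhbc and Id4 lost their calls in both comparisons under cyclic loess, with differences of −0.53 to −0.17, as did Smad9 in yDucts (−0.27). Bmp4, Tgfbr2, Acvr1, Bmpr1a, Tgfbr1, Smad3, Tgfbr3, Bmp7, Chrd, Gdf2 and Gdf3 passed in both comparisons under all scalings run and with any 1 array left out.

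**Figure D3:**
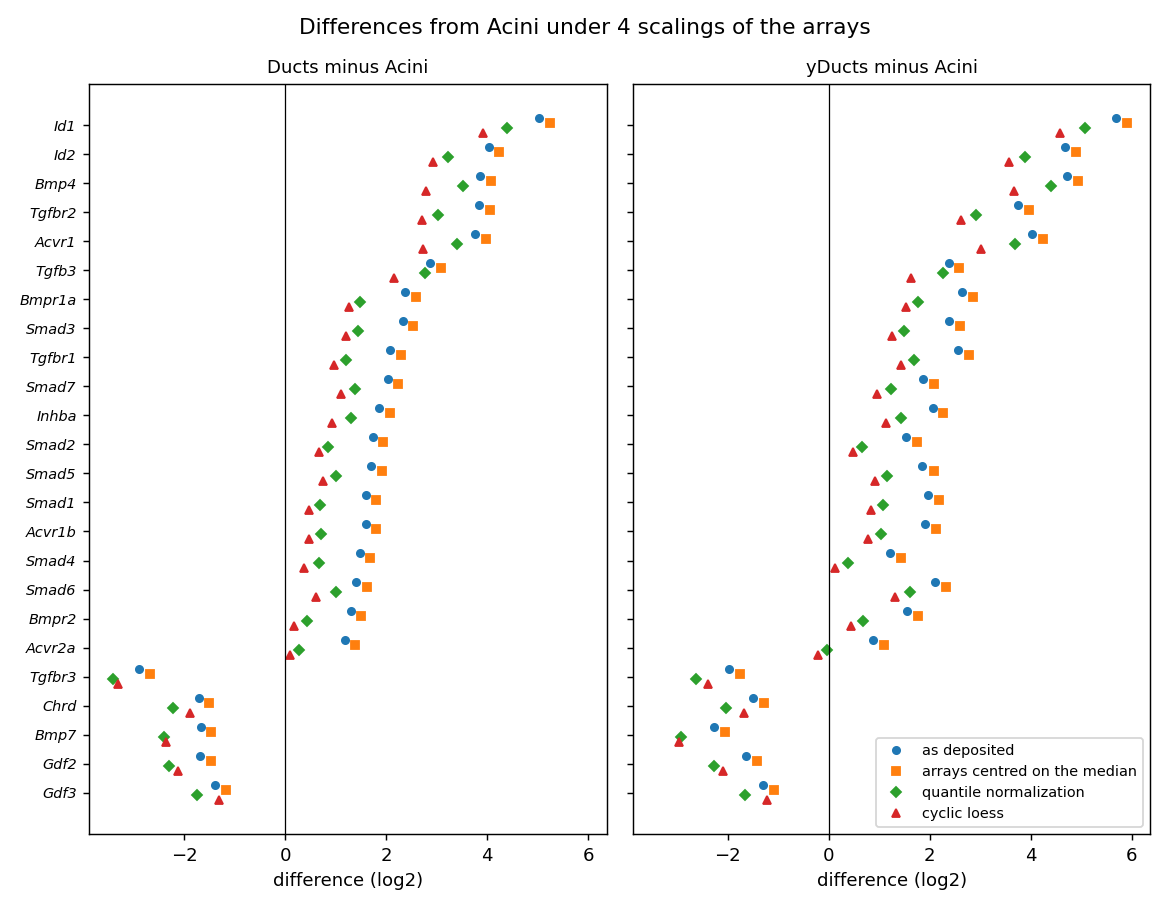
Difference from Acini (log2, horizontal axis) of 24 pathway genes in Ducts (left) and yDucts (right), with the arrays as deposited, centred on their medians, quantile normalized or cyclic loess normalized. Cyclic loess gives the smallest value for most genes that are higher in organoids, and the sign changes for Acvr2a in yDucts alone.

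The ID genes, which encode dominant-negative partners of basic helix-loop-helix factors, included the largest differences of all members. For 4 known response genes of the BMP branch that differed in how they moved, the 250 bases before the gene start are shown. The promoter sequences at hand held no entry for Id1 or Bambi. Activity of the pathway itself was not measured. The sequences are from RefSeq (GRCm38.p6), 5′ to 3′ on the gene's strand, for Id2 (chr12:25096093-25096342, minus strand), Id3 (chr4:136143572-136143821, plus strand), Id4 (chr13:48260866-48261115, plus strand) and Smad6 (chr9:64022060-64022309, minus strand). Capitals mark GGCGCC, a GC-rich sequence that BMP-branch SMADs are known to bind, and CAGAC or its reverse complement, the short SMAD box.
Id2: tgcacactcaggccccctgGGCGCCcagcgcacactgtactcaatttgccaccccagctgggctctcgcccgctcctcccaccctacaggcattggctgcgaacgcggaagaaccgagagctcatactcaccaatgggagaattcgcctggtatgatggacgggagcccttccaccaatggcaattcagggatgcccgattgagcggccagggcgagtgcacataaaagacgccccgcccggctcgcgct
Id3: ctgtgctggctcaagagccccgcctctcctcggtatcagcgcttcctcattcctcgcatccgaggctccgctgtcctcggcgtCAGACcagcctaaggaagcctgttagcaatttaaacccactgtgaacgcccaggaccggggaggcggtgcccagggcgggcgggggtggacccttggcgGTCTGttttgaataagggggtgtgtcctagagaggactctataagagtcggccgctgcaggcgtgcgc
Id4: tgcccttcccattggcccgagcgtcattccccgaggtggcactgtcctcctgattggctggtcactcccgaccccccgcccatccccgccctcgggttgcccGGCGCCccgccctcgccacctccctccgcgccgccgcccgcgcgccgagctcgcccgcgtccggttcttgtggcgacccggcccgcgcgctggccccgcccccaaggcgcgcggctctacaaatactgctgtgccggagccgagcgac
Smad6: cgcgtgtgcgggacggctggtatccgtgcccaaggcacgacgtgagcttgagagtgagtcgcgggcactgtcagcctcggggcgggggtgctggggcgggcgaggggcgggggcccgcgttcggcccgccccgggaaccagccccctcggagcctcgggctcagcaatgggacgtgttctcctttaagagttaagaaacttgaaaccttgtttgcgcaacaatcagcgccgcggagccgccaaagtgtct
GGCGCC was found once in the Id2 window, 231 bases before the start, and once in the Id4 window. The Id3 window held CAGAC at 167 bases before the start and its complement at 68, and neither motif was in the Smad6 window. Of all 32851 windows of the same length, 9.59% held GGCGCC and 42.2% held CAGAC on either strand. Of the 45 windows of 38 member genes with an entry, 24.4% and 40% did. A match is a run of letters and not a measured binding site.

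Id1 read 5.38, 6.72, 5.65 and 6.06 in Acini, 11.38, 11.73, 10.51 and 10.31 in Ducts and 11.80, 11.09, 11.77 and 11.94 in yDucts. More than 3 units lay between the highest Acini array and the lowest organoid array. Id1 was higher by 32.7-fold in Ducts (5.03 ± 0.35, adjusted p = 7.21e-08) and by 51.9-fold in yDucts (5.70 ± 0.35, adjusted p = 2.42e-08). Id2 read 5.84, 7.32, 6.39 and 6.91 in Acini, 11.51, 11.32, 10.16 and 9.60 in Ducts and 11.68, 10.33, 11.71 and 11.46 in yDucts. It was higher by 16.4-fold in Ducts (4.03 ± 0.46, adjusted p = 4.89e-06) and by 25.6-fold in yDucts (4.68 ± 0.46, adjusted p = 1.28e-06), and its 2 other probe sets had differences of 3.12 to 4.72. Both genes passed under every alternative run, with lowest differences of 3.92 for Id1 and 2.92 for Id2, both in Ducts under cyclic loess.

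Id3 separated the replicas of Ducts. It read 5.28, 4.87, 5.15 and 3.92 in Acini, 7.06, 8.76, 5.35 and 4.78 in Ducts and 8.80, 6.17, 8.45 and 9.01 in yDucts. Ducts A and B lay above all Acini arrays, while Ducts C and D lay near them, and yDucts B was the lowest of its group. In yDucts Id3 was 9.87-fold higher than in Acini (3.30 ± 0.80, adjusted p = 0.00225). In Ducts the difference was 1.68 ± 0.80 and did not pass (adjusted p = 0.0716). It was 3.10 and passed without Ducts C and D (adjusted p = 0.0029), and it was 0.26 without Ducts A and B (adjusted p = 0.731). It also passed when Ducts C or Ducts D was left out singly (adjusted p = 0.0439 and 0.0205) and with the arrays centred on their medians (adjusted p = 0.046). Of the 50 tested members, 20 had Ducts A and B above Ducts C and D and 14 had them below, which is 40% and 28% against 29% and 30.9% of all genes. Ducts C and D had the lower Ducts values of Id1, Id2, Tgfb3, Tgfbr1, Acvr1b and Smad1. They had the higher values of Bmp4, Bmp7, Acvr2a, Smad2 and Smad4, among others. Id4, the member of the family known from neural and mammary cells, was lower in both kinds of organoid on its brightest probe set (−0.90 ± 0.26, adjusted p = 0.00666, and −0.87 ± 0.26, adjusted p = 0.00793), and 1 of its dimmer probe sets had differences of 0.17 and 0.67. With the mean of all its probe sets Id4 did not pass (−0.35 in Ducts and −0.18 in yDucts). Its call was also lost in Ducts without Ducts C and D, and in yDucts under quantile scaling.

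The inhibitory SMADs were both higher. Smad6, which blocks the BMP branch, read 3.97, 6.26, 5.39 and 5.70 in Acini, 6.55, 7.51, 6.60 and 6.30 in Ducts and 7.44, 6.89, 7.45 and 7.93 in yDucts. The lowest Ducts array was only just above the highest Acini array. Smad6 was higher by 2.66-fold in Ducts (1.41 ± 0.42, adjusted p = 0.00853) and by 4.28-fold in yDucts (2.10 ± 0.42, adjusted p = 0.000588). In Ducts it did not pass under quantile scaling (adjusted p = 0.124), cyclic loess (adjusted p = 0.225) or without Ducts A and B (adjusted p = 0.0586). Smad7, which blocks both branches, read 5.34, 5.43, 5.65 and 6.33 in Acini, 7.74, 7.73, 7.63 and 7.76 in Ducts and 7.48, 7.62, 7.62 and 7.53 in yDucts. Organoid arrays were tight and above all Acini arrays. It was higher by 4.08-fold in Ducts (2.03 ± 0.19, adjusted p = 9.2e-07) and by 3.67-fold in yDucts (1.88 ± 0.19, adjusted p = 1.75e-06).

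**Figure D4:**
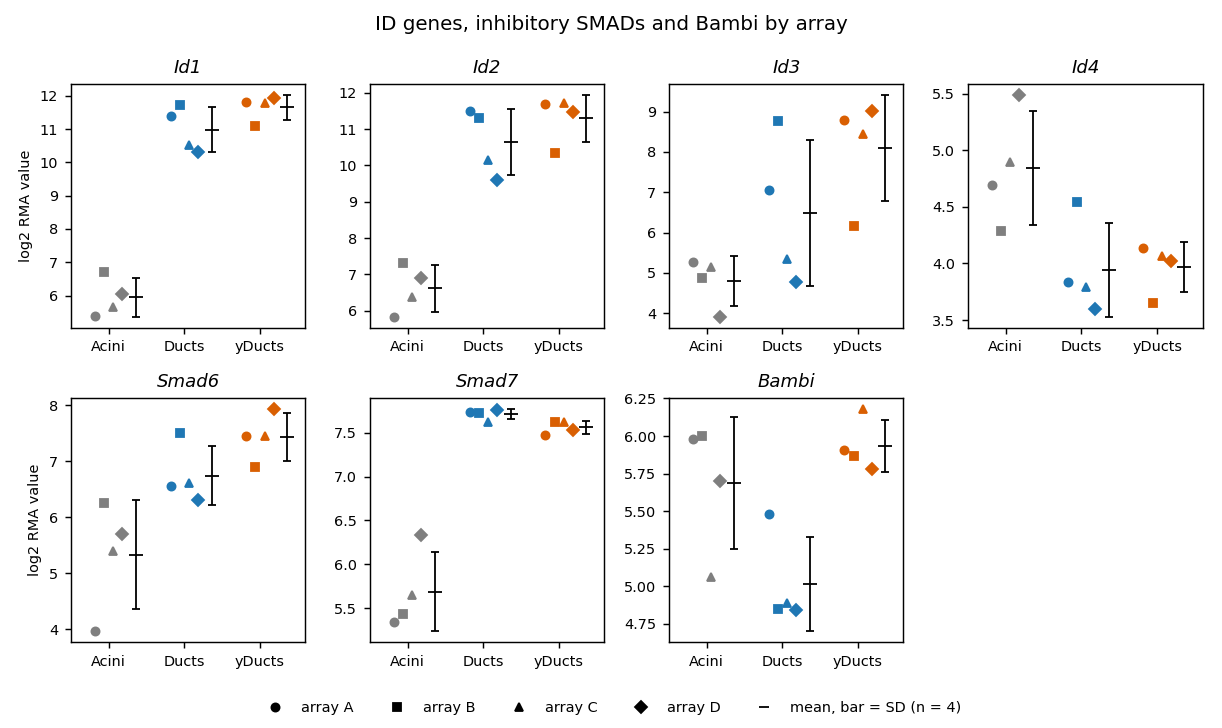
Log2 RMA values (vertical axis, a separate range in each panel that does not start at 0) of the ID genes, Smad6, Smad7 and Bambi in the 3 groups. Each point is an array, its shape gives the letter, and bars give the mean and SD (n = 4). Id1, Id2, Smad6 and Smad7 are higher on all organoid arrays, Id3 is high on Ducts A and B and not on Ducts C and D, and Bambi is lowest in Ducts.

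Between yDucts and Ducts, 48 of the 50 tested members did not pass the test, and no difference that passed reached 2-fold. Bambi, a decoy receptor without a kinase domain that dampens TGF-beta and BMP signals, was higher in yDucts. It read 5.98, 6.00, 5.06 and 5.70 in Acini, 5.48, 4.85, 4.89 and 4.84 in Ducts and 5.91, 5.87, 6.18 and 5.78 in yDucts. Every yDucts array lay above every Ducts array. The difference between yDucts and Ducts was 0.92 ± 0.22 (1.89-fold, adjusted p = 0.0421). Against Acini Bambi was lower in Ducts (−0.67 ± 0.22, adjusted p = 0.0148) and did not pass in yDucts (0.25 ± 0.22, adjusted p = 0.316). The call in Ducts was lost with arrays centred on their medians (−0.46, adjusted p = 0.0645) and with Ducts C and D left out (−0.52, adjusted p = 0.117). Inha went the other way. It read 5.48, 5.51, 4.91 and 5.44 in Acini, 6.28, 5.51, 6.59 and 6.01 in Ducts and 5.18, 5.10, 5.27 and 5.03 in yDucts, and every yDucts array lay below every Ducts array. Its difference was −0.95 ± 0.22 (1.94-fold lower, adjusted p = 0.0319). Both calls were close to the threshold. With the replicate block the adjusted p was 0.0657 for Bambi and 0.0708 for Inha. The quantile-scaled values did not pass for either gene. The Bambi call was lost without any 1 of Ducts B, C and D or of the 4 yDucts arrays, and the Inha call was lost without any 1 of Ducts A, C and D or of the 4 yDucts arrays. Over the alternatives the adjusted p ranged from 3.56e-05 to 0.293 for Bambi and from 2.55e-05 to 0.204 for Inha.

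Several members with large differences from Acini had a positive but uncalled difference between yDucts and Ducts. It was 0.67 ± 0.35 for Id1 (adjusted p = 0.46), 0.65 ± 0.46 for Id2 (adjusted p = 0.651), 1.62 ± 0.80 for Id3 (adjusted p = 0.413), 0.69 ± 0.42 for Smad6 (adjusted p = 0.567) and 0.87 ± 0.29 for Bmp4 (adjusted p = 0.164). The arrays of the 2 groups overlapped for each of these genes. Smaller positive values were those of Grem1 (0.54 ± 0.36, adjusted p = 0.616), Tgfbr1 (0.48 ± 0.35, adjusted p = 0.677) and Smad1 (0.36 ± 0.23, adjusted p = 0.611). Negative and uncalled values were those of Bmp8b (−0.66 ± 0.30, adjusted p = 0.352), Acvr2b (−0.63 ± 0.45, adjusted p = 0.653), Bmp7 (−0.60 ± 0.31, adjusted p = 0.44), Fst (−0.58 ± 0.43, adjusted p = 0.682), Bmp2k (−0.53 ± 0.19, adjusted p = 0.198) and Tgfb3 (−0.51 ± 0.37, adjusted p = 0.678). Those of Acvr2a (−0.30 ± 0.19, adjusted p = 0.586), Smad4 (−0.26 ± 0.15, adjusted p = 0.505) and Smad2 (−0.20 ± 0.19, adjusted p = 0.794) were smaller. A p above the threshold does not show that the 2 kinds of organoid were alike in them. When limma weighted the arrays by their quality, 18 members were higher and 8 lower in yDucts, beside 3150 and 3033 of all genes tested. Without Ducts A and B 5 members were higher and 4 lower, beside 1292 and 888 of all genes.

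**Figure D5:**
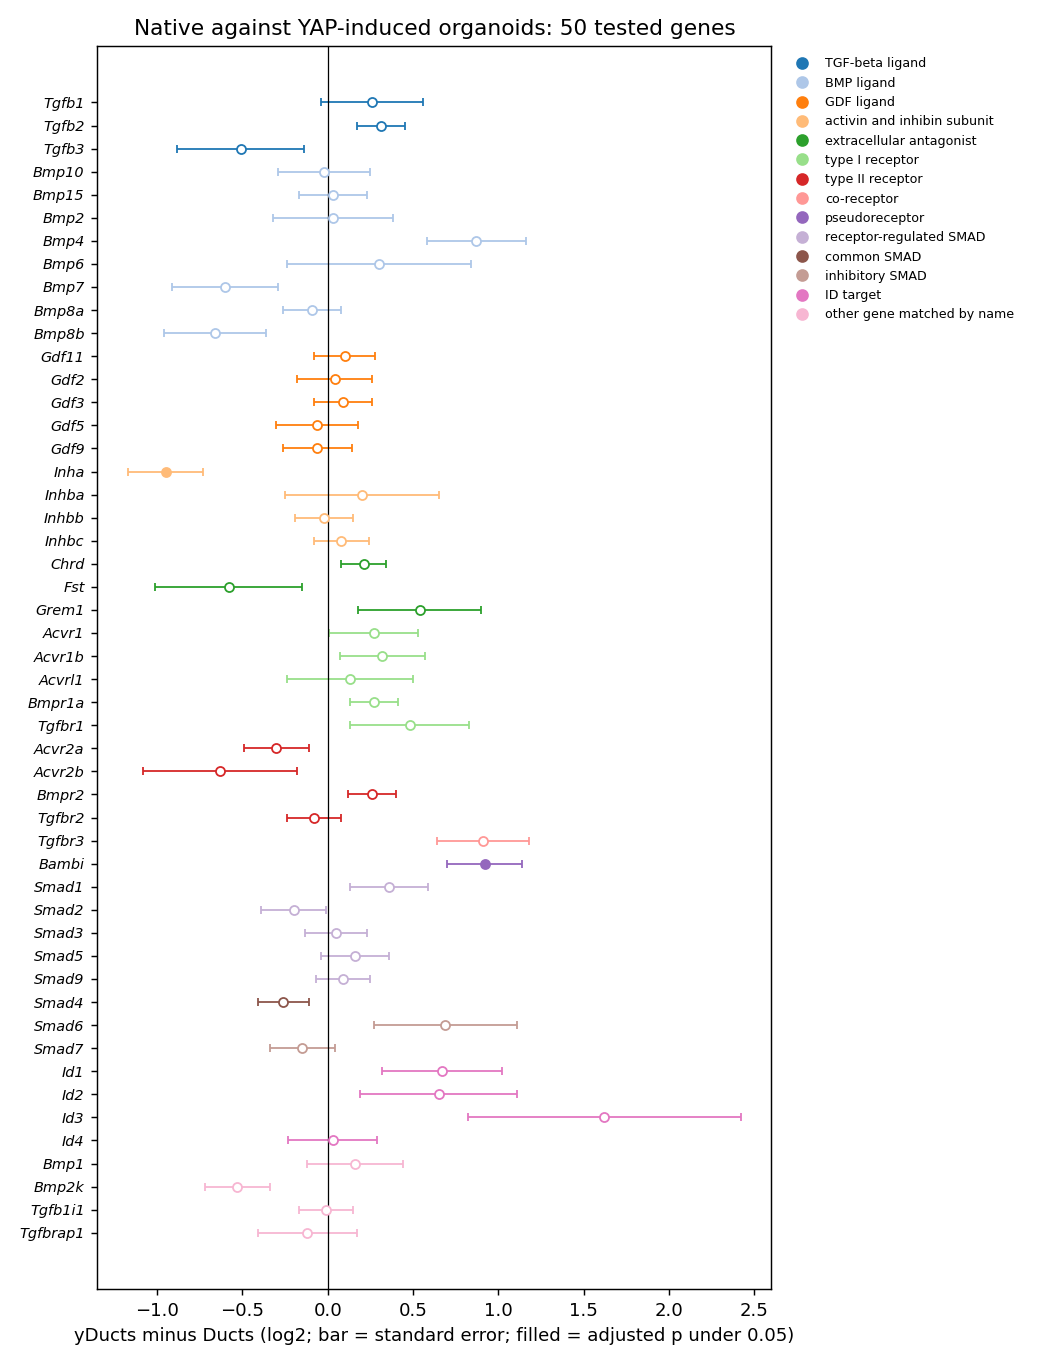
Difference between yDucts and Ducts (log2, horizontal axis) of the 50 tested members, coloured by role, with the standard error as the bar and filled points for an adjusted p under 0.05. Bambi (0.92) and Inha (−0.95) are the filled points, and Id3 has the widest bar.

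The 4 genes matched by name only were mixed. Tgfb1i1, a focal adhesion protein also called Hic-5, was 3.32-fold lower in Ducts (−1.73 ± 0.16, adjusted p = 6.71e-07) and 3.34-fold lower in yDucts (−1.74 ± 0.16, adjusted p = 6.28e-07), without overlap. Bmp2k, a kinase of the endocytic machinery, was 3.18-fold and 2.2-fold higher (1.67 ± 0.19, adjusted p = 5.26e-06, and 1.14 ± 0.19, adjusted p = 0.000139). Its other probe sets had differences of −0.19 to 0.87. Bmp1, a procollagen protease, and Tgfbrap1, a receptor-associated vesicle protein, did not pass in any comparison.

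Another 51 genes of the pathway outside the symbols above were listed by role, and 47 of them were tested. Against Acini, 21 were higher and 16 were lower in Ducts, 23 were higher and 14 were lower in yDucts, and between yDucts and Ducts 1 was higher. Over all genes tested 42.7% were higher and 33.1% lower in Ducts, and 43.6% and 32.6% in yDucts. Under cyclic loess the balance of this list turned, to 13 higher and 16 lower in Ducts and 15 and 18 in yDucts, and under quantile scaling it was 18 and 16, and 18 and 18. Of 13 regulators of SMADs, 11 were higher in Ducts and 10 in yDucts. Pmepa1, a TGF-beta-induced inhibitor of SMAD2 and SMAD3, read 4.95 to 5.71 in Acini, 9.86 to 10.15 in Ducts and 9.11 to 9.96 in yDucts, which was higher by 25.8-fold in Ducts (4.69 ± 0.21, adjusted p = 1.14e-09) and by 17.6-fold in yDucts (4.14 ± 0.21, adjusted p = 3.6e-09). Tgif1, a SMAD corepressor, was 10.9-fold and 10.6-fold higher, and the ubiquitin ligase Nedd4l was 9.73-fold and 7.21-fold higher. The SMAD anchor relative Zfyve16 was at least 4.26-fold and at least 4.65-fold higher, from an Acini mean below the 30th percentile.

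Of 6 tested TGF-beta response genes, 4 were higher and 1 was lower in both kinds of organoid. Beside them, 42.7% of all genes tested were higher in Ducts and 43.6% in yDucts. Ccn2, which encodes a matrix protein and is also a widely used YAP target, was higher by 34.8-fold in Ducts (5.12 ± 0.35, adjusted p = 5.99e-08) and by 37.9-fold in yDucts (5.24 ± 0.35, adjusted p = 4.76e-08). Cdkn2b, a cell cycle inhibitor, was 26.9-fold and 26.8-fold higher. Fn1, or fibronectin, was 7.31-fold and 7.19-fold higher and had the same split in Ducts as Id3, at 11.88 and 10.67 on Ducts A and B and 8.27 and 8.01 on Ducts C and D. Tgfbi, a matrix protein named for its induction by TGF-beta, was at least 4.83-fold and at least 4.88-fold lower.

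The latency and activation genes were mixed, with 4 of 10 higher and 2 lower in Ducts, and 5 higher and 2 lower in yDucts. Over all genes tested 42.7% were higher and 33.1% lower in Ducts, and 43.6% and 32.6% in yDucts, so the shares of higher genes in this list were close to those. Itgav, the alpha chain of the integrins that release latent TGF-beta, was 5.89-fold and 8.47-fold higher, and Ltbp1, which tethers latent TGF-beta to matrix, was 4.2-fold and 4.68-fold higher. Itgb6, the beta chain of an epithelial integrin that releases TGF-beta, was higher in Ducts than in Acini (1.55 ± 0.56, adjusted p = 0.0236). Its Ducts values were 6.30, 8.01, 5.32 and 4.96 on arrays A to D, of which those of C and D lay at the top of the Acini range of 3.82 to 5.27. Ltbp2, a matrix protein related to Ltbp1, was higher in yDucts than in Acini (2.08 ± 0.89, adjusted p = 0.0473). It was at 6.62, 7.93, 3.53 and 3.08 on Ducts A to D and at 7.71, 7.37, 7.53 and 5.60 on yDucts A to D. Ducts A lay within the range of yDucts, and Ducts B lay above all yDucts arrays. The Ltbp2 difference between yDucts and Ducts did not pass (1.76 ± 0.89, adjusted p = 0.425). Nrros, which holds latent TGF-beta on myeloid cells, was 2.51-fold and at least 2.58-fold lower. Other ligands and accessory receptors had no higher gene, with 7 of 8 lower in Ducts and 5 lower in yDucts. Eng, or endoglin, a co-receptor typical of endothelium, was 5.14-fold and 4.65-fold lower, and Amhr2, the receptor of anti-Müllerian hormone, was 6.13-fold and 6.82-fold lower. Nodal and Lefty1, a ligand of early embryos and its antagonist, had differences of −1.21 and −1.03 in Ducts and −0.99 and −1.86 in yDucts, all of which passed.

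Among 10 other secreted antagonists the largest difference was in Sostdc1, a BMP and WNT antagonist. It read 9.02, 9.32, 9.64 and 8.91 in Acini and 2.41 to 2.95 on the 8 organoid arrays, below their 30th percentile, and was at least 64.6-fold lower in Ducts (adjusted p = 7.62e-12) and at least 65.2-fold lower in yDucts (adjusted p = 9.73e-12). Twsg1, which binds BMPs together with chordin, was 3.73-fold and 6.12-fold higher, and Nbl1, a BMP antagonist of the DAN family, was 2.79-fold and 3.17-fold higher. Fstl1, a secreted BMP-binding glycoprotein made by many mesenchymal cells, was the gene that differed between yDucts and Ducts. It read 8.07, 7.82, 7.32 and 7.23 in Acini, 3.93, 3.35, 3.17 and 3.16 in Ducts and 6.68, 5.91, 6.86 and 6.00 in yDucts. The 3 groups did not overlap. Fstl1 was 7.78-fold higher in yDucts than in Ducts (2.96 ± 0.27, adjusted p = 4.41e-05), and against Acini it was 18.5-fold lower in Ducts and 2.37-fold lower in yDucts. Bmper, a BMP-binding regulator, was at least 3.57-fold higher in yDucts than in Acini (adjusted p = 0.000902), and its difference between yDucts and Ducts did not pass (1.86 ± 0.48, adjusted p = 0.0567).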

How the data were processed

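RNA from 4 replicas each of Acini, Ducts and yDucts was hybridised to Affymetrix mouse arrays. The authors deposited 1 table of log2 values for 45101 probe sets, made with RMA per the submitters' processing notes, whose version and chip definition the sources used here do not give. The deposited arrays did not share 1 distribution, so other scalings were tried, and the number of arrays limits the precision. Probe sets were named by GEO's platform annotation: 34958 had 1 gene symbol, 932 had several and 9211, controls included, had none, and those with 1 symbol were used. The test was limma 3.58.1 in R 4.3.3 (lmFit and eBayes, all 12 arrays, 3 contrasts), with Benjamini-Hochberg adjustment over all 14991 genes tested and a threshold of 0.05. Genes had to lie above the 30th percentile of the array on at least 4 arrays. Where a group mean lay below that percentile, values were raised to it and the fold was given as a lower bound. Full statistics were given for members called by at least 2-fold, the 10 largest increases and decreases per comparison, receptors, ID genes, Smad6, Smad7 and Bambi, and per list of other pathway genes for up to 4 called genes of largest difference. Members, lists and alternatives were chosen with earlier results of these data known. Group labels came from the sample titles. The scripts were tested on simulated data. Promoter windows are RefSeq sequences of GRCm38.p6, with 38 of 55 members matched. Alternatives were other scalings, filters, probe sets, array weights, the replicate block, 2-group fits and arrays left out.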

Additional observations from a re-analysis of the deposited data

Results flagged for a closer look

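In 7 of 150 groups of 4 arrays, or 4.67%, 1 array stood apart from the other 3 by Dixon's criterion, where chance alone gives about 1 in 20. Bambi was at 5.48 on Ducts A and at 4.84 to 4.89 on the other Ducts arrays. Inha was at 4.91 on Acini C and at 5.44 to 5.51 on the other Acini arrays. Bmp2k was at 5.31 on Acini D against 4.77 to 4.85, Bmp8b at 4.43 on Acini C against 5.23 to 5.35, and Fst at 4.47 on Acini B against 3.61 to 3.73. Bmp10 was at 4.24 on yDucts B against 4.57 to 4.63, and Gdf5 was at 3.25 on yDucts B against 2.84 to 2.89.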

How the results depend on the processing

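Under cyclic loess 14 members were higher in Ducts than in Acini and 9 were lower in yDucts than in Acini, and 9 were lower in yDucts with a filter at the 50th percentile, which left 40 members tested. With no filter on low values all 55 members were tested. Against Acini 22 were then higher and 20 lower in Ducts, beside 6417 and 7196 of all genes. In yDucts 21 were higher and 18 lower, beside 6558 and 7189. Quantile scaling moved the share of higher genes among all called in Ducts against Acini from 56.3% to 44.4% and the median of all genes from 0.21 to −0.15. Cyclic loess gave 41.4% and −0.17, and arrays centred on the median gave 63.7% and 0.42. Between yDucts and Ducts the counts of higher and lower members were 0 and 0 under quantile scaling (223 and 102 over all genes), 18 and 8 with array weights (3150 and 3033), 5 and 4 without Ducts A and B (1292 and 888), and 0 and 0 without Ducts C and D (159 and 162). With 1 array left out in turn they ranged from 0 to 1 for each direction. Same-lettered arrays correlated by −0.35 to 0.13 in their deviations from group means, so the letters did not pair them, and with the replicate block the counts between yDucts and Ducts were 0 and 0, against Acini 21 and 14 in Ducts and 21 and 13 in yDucts. Reversed values were those of Inhbb in Ducts (0.01 with the mean of all probe sets, 0.46 with the probe set of largest interquartile range) and in yDucts (0.34 and 1.12), of Tgfb2 in yDucts (0.11 and 0.44) and of Acvr2a in yDucts (−0.03 under quantile scaling, −0.20 under cyclic loess). The causes were not tested. Of 38 members called in Ducts, 21 had another probe set above the 30th percentile and 7 of these had one that went the other way, and in yDucts it was 20 and 9 of 35. Inhbc, Bmp15, Gdf5 and Smad9, called lower, and Tgfb3, called higher, had Acini means below the Acini array median, where signal over background limits the values.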
